A study of Mus musculus with 22 samples.

Results

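The genes described here encode the proteins of the cytoplasmic ribosome. They were taken by symbol: every gene named Rpl or Rps with a number, with or without a closing letter and digits, plus Rplp0, Rplp1, Rplp2 and Rpsa, leaving out Rps12l1 and all genes named as pseudogenes (-ps). This gave 87 genes of the 33641 symbols in the tables, 35 of the small subunit and 52 of the large subunit, and 82 of them reached the mean of 1 TPM over all libraries that a gene needed to be tested. RNA was sequenced from mouse bone marrow cells of the LSK gate (no lineage antigens, Sca-1 and Kit present), where stem cells and early progenitors are found. All mice were C57BL/6, all received pI:pC, a double-stranded RNA used to switch on inducible Cre, and all cells were sorted 6 days after deletion and used without culture. The 12 RNA libraries came in 4 genotypes of 3 libraries each: WT, a knockout of Chd8 (Chd8 KO), one of P53 (P53 KO), and both together (DKO). The sources used here do not give the Cre driver, the alleles or the age of the mice, and do not say that replicates were separate animals, so the spread behind each p-value is that among libraries and could be technical only.

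Ribosomal proteins are needed in near-equal amounts, and their genes are among the most strongly expressed in dividing cells. Their mRNAs begin with a run of pyrimidines, the 5′ TOP tract, through which mTOR and LARP1 set how much of them is translated. When assembly fails, free RPL5 and RPL11 bound to the 5S rRNA block MDM2, the ligase that degrades P53, so that P53 accumulates. Blood is sensitive to this: inherited loss of a single allele of any of several ribosomal protein genes causes Diamond-Blackfan anemia, and loss of RPS14 is part of the 5q- syndrome. CHD8 is an ATP-dependent chromatin remodeler that binds near promoters and is known to bind P53. Several members have a paralog, and one of these, Rps27l, is a direct target of P53.

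The promoters of members that moved together are shown first, as the 80 bases from 60 before to 20 after the RefSeq start (build GRCm38.p6, read 5′ to 3′ on the strand of the gene). Capitals mark CTTT within 20 bases of the start on the strand of the gene, a short pyrimidine run of the TOP kind, and CCGGAAG or its reverse complement, the core of an ETS-factor site. The first set holds members that were lower in Chd8-deleted cells both with and without P53, namely Rps4x at chrX:102189372-102189451 (minus strand), Rpl24 at chr16:55966215-55966294 (plus strand), Rpl37 at chr15:5116553-5116632 (plus strand), Rpl22l1 at chr3:28805448-28805527 (plus strand) and Rps15a at chr7:118116128-118116207 (minus strand).
Rps4x: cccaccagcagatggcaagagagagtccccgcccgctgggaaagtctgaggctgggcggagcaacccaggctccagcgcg
Rpl24: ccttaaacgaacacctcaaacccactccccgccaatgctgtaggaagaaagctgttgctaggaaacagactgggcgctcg
Rpl37: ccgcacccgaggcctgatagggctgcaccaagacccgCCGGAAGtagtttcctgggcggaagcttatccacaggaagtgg
Rpl22l1: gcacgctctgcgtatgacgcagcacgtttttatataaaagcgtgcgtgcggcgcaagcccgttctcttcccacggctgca
Rps15a: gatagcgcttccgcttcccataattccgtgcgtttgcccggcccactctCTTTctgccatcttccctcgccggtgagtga

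The second set holds abundant members that passed the test in no comparison, namely Rplp0 at chr5:115559407-115559486 (plus strand), Rpl19 at chr11:98026650-98026729 (plus strand), Rpl13a at chr7:45128726-45128805 (minus strand) and Rpl41 at chr10:128549149-128549228 (minus strand).
Rplp0: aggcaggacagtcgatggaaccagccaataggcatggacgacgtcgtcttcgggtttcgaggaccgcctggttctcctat
Rpl19: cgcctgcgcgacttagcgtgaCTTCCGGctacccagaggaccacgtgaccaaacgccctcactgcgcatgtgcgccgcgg
Rpl13a: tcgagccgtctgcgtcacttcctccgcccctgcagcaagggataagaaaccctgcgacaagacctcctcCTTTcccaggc
Rpl41: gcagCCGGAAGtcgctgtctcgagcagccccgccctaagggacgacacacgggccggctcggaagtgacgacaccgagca

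The third pair sets Rps27 at chr3:90213629-90213708 (minus strand) beside its paralog Rps27l at chr9:66946026-66946105 (plus strand). At the starts used, Rps27 has CTTT nearby and Rps27l has an ETS core.
Rps27: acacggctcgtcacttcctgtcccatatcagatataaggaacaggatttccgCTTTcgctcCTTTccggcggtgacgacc
Rps27l: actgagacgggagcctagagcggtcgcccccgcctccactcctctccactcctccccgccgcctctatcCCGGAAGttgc

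RefSeq promoters of 300 bases (250 before and 50 after the start), the first listed for each symbol, were matched to 60 of the 82 tested members by symbol. CTTT within 20 bases of the start stood in 21 of the 60 (35%) against 15.6% of all 27025 promoters. It stood in 2 of 15 matched members that were lower in both Chd8 comparisons (13.3%) and in 19 of the 45 others (42.2%). CCGGAAG, searched on both strands of the window, stood in 40% of members against 9.12% of all promoters, with 46.7% of the lower members and 37.8% of the others. AAGATGG on either strand stood in 15% against 6.48%, GGGCGG on either strand in 61.7% against 35.9%, and CACGTG, which reads the same on both strands, in 8.33% against 7.24%. CCGGAAG ends in the AAG that begins AAGATGG, so a stretch can count for both. These are matches of letters in a window around an annotated start and do not show binding.

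Of the targeted genes, Trp53 stood at 230 to 268 TPM in WT and Chd8 KO and at 16.1 to 24.3 TPM in P53 KO and DKO. Chd8 transcripts were lower but present in the deleted groups, at 48.2 to 73.9 TPM in WT, 26.2 to 35.6 in Chd8 KO, 53.1 to 69.4 in P53 KO and 34.8 to 44.4 in DKO, and the sources used here do not say which exons were deleted. Every library sums to 1000000 TPM, so depth is unknown and each value is a share of the library. P53 KO replicates 1 and 2 carry the number of another run than the other 10 libraries and stand apart, with 2.12% and 1.9% of TPM in mitochondrial genes against 5.33% to 6.97% elsewhere. The 10 LSK gate and stem cell markers all stood at a mean of 1 TPM or more in each group, with sums of 1083 to 1365 TPM in WT, 1405 to 1624 in Chd8 KO, 1110 to 1596 in P53 KO and 1347 to 1456 in DKO. The sums of the Chd8 KO libraries lay above those of WT, but the genes did not move alike. Slamf1, Mecom, Procr and Meis1 lay above WT in every Chd8 KO library. Flt3 lay below, at 113 to 188 TPM in WT and 28.6 to 98.3 in Chd8 KO, and the others overlapped. The sum of 9 genes of the lineage antigens that the gate leaves out was 26.1 to 63.1, 12.9 to 19.6, 28.1 to 44 and 41.7 to 67.1 TPM in that order, lowest in Chd8 KO. The part of these differences in the results was not tested. Summed TPM of 4 Y-linked genes was 113 to 126 in WT replicates 1 and 2, 94.2 to 116 in Chd8 KO, 50.1 in P53 KO replicate 2, and 0.738 to 2.03 in WT replicate 3, P53 KO replicates 1 and 3 and all DKO libraries, and its part in the results was not tested. In bulk RNA, fewer cells of a type and less RNA per cell cannot be told apart.

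Together the 87 genes held between 16.0% and 23.6% of all TPM. Their share of TPM was 19.0%, 18.5% and 17.0% in the WT libraries, 16.0%, 16.9% and 16.1% in Chd8 KO, 23.6%, 21.2% and 20.6% in P53 KO, and 16.5%, 16.8% and 17.1% in DKO. All 3 P53 KO libraries lay above every other library, and the Chd8 KO libraries lay below all WT libraries. The DKO libraries lay below the P53 KO libraries and overlapped with WT replicate 3. Group means were 18.2% ± 1.01 in WT, 16.3% ± 0.504 in Chd8 KO, 21.8% ± 1.59 in P53 KO and 16.8% ± 0.29 in DKO (SD, n = 3). The 2 P53 KO libraries of the other run had the least mitochondrial RNA. Over the TPM left without mitochondrial genes the mean share was 22.5% in P53 KO, 19.3% in WT, 17.4% in Chd8 KO and 17.9% in DKO. The large-to-small subunit ratio of summed TPM stayed between 1.15 and 1.23 in all 12 libraries.

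**Figure D1:**
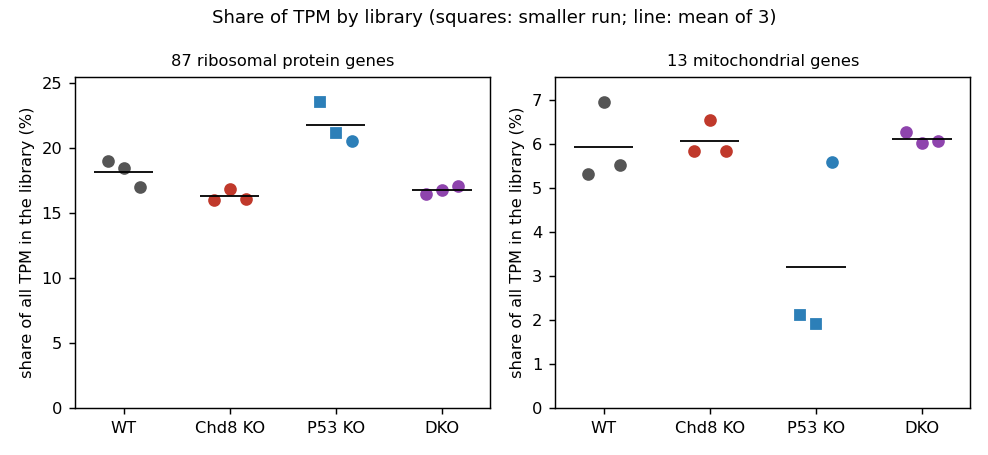
Share of all TPM (%) held by the 87 ribosomal protein genes (left) and by 13 mitochondrial genes (right) in each library, by genotype; points are libraries, squares mark the run that holds P53 KO replicates 1 and 2, and lines are means of 3. The 3 P53 KO libraries sit between 20.6% and 23.6% on the left, above all other libraries, and replicates 1 and 2 sit near 2% on the right.

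Most members were expressed at a similar high level. The median member stood at 2188 TPM over the 12 libraries, 68 members stood at 1000 TPM or more, 10 between 100 and 1000, 4 between 1 and 100 and 5 under 1, and 57 of the 100 most abundant genes were members. Among the highest were Rplp1 (5573 TPM), a protein of the stalk that recruits elongation factors, Rps24 (5210 TPM), Rpl13a (4993 TPM) and Rps29 (4624 TPM). The 5 lowest were Rpl10l, an autosomal copy of Rpl10 used in the testis, which was listed at 0 in every library, and Rpl6l (0.368 TPM), Rpl39l (0.636 TPM), Rpl3l (0.681 TPM), a muscle paralog, and Rps3a2 (0.751 TPM). These 5 were not tested. Each paralog stood far below its partner: Rps27l at 429 TPM beside Rps27 at 4120, Rpl22l1 at 332 beside Rpl22 at 1474, Rpl7l1 at 90.7 beside Rpl7 at 2224, Rps4l at 29.2 beside Rps4x at 2665, Rpl39l beside Rpl39 at 1708, Rpl3l beside Rpl3 at 2736 and Rpl10l beside Rpl10 at 1249. Rpl5 stood at 62.3 TPM and Rpl12 at 149 TPM, under other large-subunit members such as Rpl11 at 1892 TPM, and annotated -ps copies added under 1 TPM to each. The sources used here do not say how reads were divided among genes of like sequence, so these levels are uncertain.

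A subset of members was lower in cells without Chd8 that still had P53. In Chd8 KO relative to WT 25 of the 82 tested members fell and 4 rose at an adjusted p under 0.05 from limma on log2(TPM + 1), while 6.98% of all 13162 genes fell and 9.65% rose. The median member moved by -0.13 on the log2 scale, with a median of 0.02 over all genes. Of the 25 that fell, 8 were of the small and 17 of the large subunit. With the member sum held equal in every library, 22 still fell and 16 rose, a setting that moved the median of all genes to 0.16. Without Chd8 KO replicate 1 the count of falls was 16.

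Rps4x, the X-linked small-subunit protein, had the smallest adjusted p of all members in both comparisons of Chd8-deleted with undeleted cells. It stood at 3567, 3232 and 3251 TPM in WT and at 1758, 1867 and 1936 TPM in Chd8 KO. The P53 KO libraries had 3687, 3562 and 3753 TPM, and the DKO libraries had 1713, 1828 and 1825 TPM. All 6 libraries with Chd8 deleted lay below all 6 others. The log2 difference was -0.85 ± 0.07 (SE) in Chd8 KO relative to WT (adjusted p = 3.43e-05), -1.04 ± 0.07 in DKO relative to P53 KO (adjusted p = 3.32e-05) and -0.90 ± 0.07 in DKO relative to WT (adjusted p = 0.000108).

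Large-subunit members fell too, Rpl29 and Rpl24 by less than Rps4x. Rpl29, a basic protein found only in eukaryotic ribosomes, stood at 1854, 2035 and 1761 TPM in WT, 1080, 1110 and 1027 in Chd8 KO, 1980, 1822 and 2019 in P53 KO, and 1014, 1029 and 981 in DKO. Rpl24, whose mutation gives the belly spot and tail mouse, stood at 1511, 1634 and 1398 TPM in WT, 921, 989 and 956 in Chd8 KO, 1864, 1677 and 1576 in P53 KO, and 911, 968 and 915 in DKO. In both genes the groups with and without Chd8 did not overlap. The log2 differences of Rpl29 were -0.81 ± 0.07 and -0.94 ± 0.07 with and without P53 (adjusted p = 6.04e-05 and 0.000104), and those of Rpl24 were -0.66 ± 0.08 and -0.87 ± 0.08 (adjusted p = 0.000463 and 0.00032).

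Rpl22l1, the paralog that can take the place of Rpl22 in the ribosome, fell past the test in both Chd8 comparisons under each of the 27 alternatives tried. It stood at 528, 378 and 476 TPM in WT, 200, 223 and 261 in Chd8 KO, 420, 428 and 500 in P53 KO, and 162, 197 and 212 in DKO. Its log2 difference was -1.01 ± 0.15 in Chd8 KO relative to WT (adjusted p = 0.0015) and -1.24 ± 0.15 in DKO relative to P53 KO (adjusted p = 0.00107). Rpl22 itself, at 1292, 1413 and 1242 TPM in WT and 1408, 1544 and 1420 in Chd8 KO, overlapped between those groups and did not pass the test in any comparison.

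**Figure D2:**
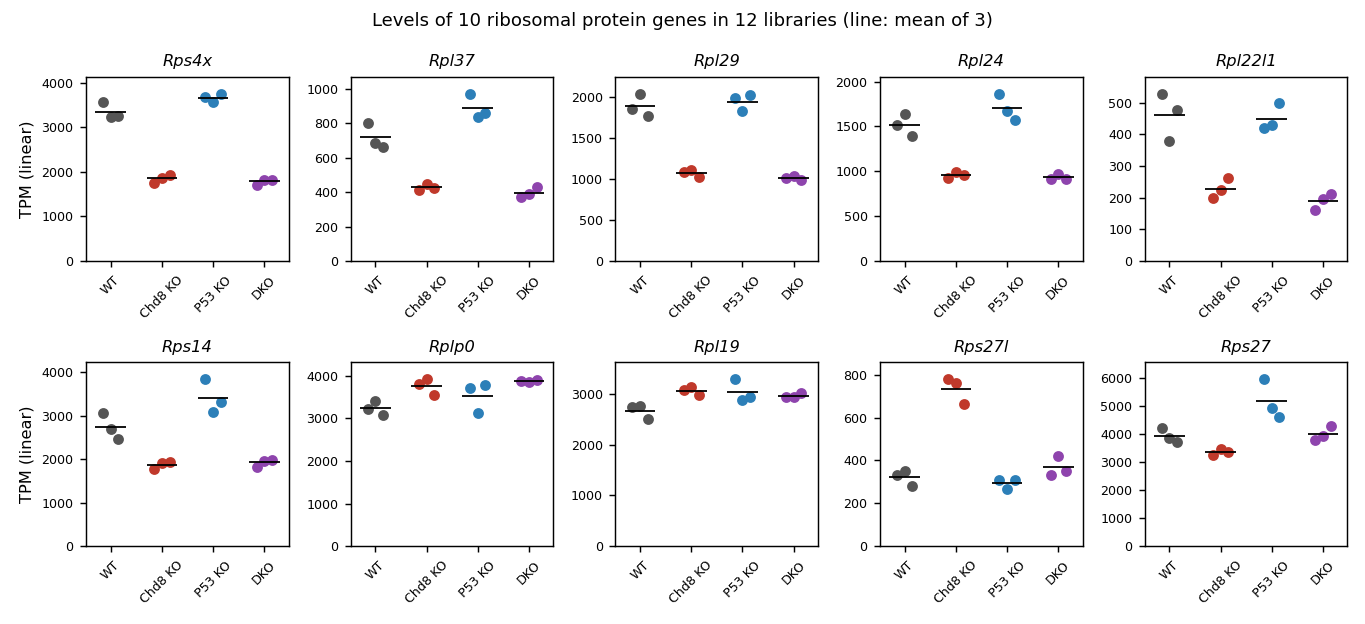
TPM (linear scale from 0) of 10 members in each of the 12 libraries, by genotype; points are libraries and lines are means of 3. The Chd8 KO and DKO points of Rps4x, Rpl37, Rpl29, Rpl24, Rpl22l1 and Rps14 lie below all WT and P53 KO points, Rplp0 and Rpl19 passed the test in no comparison, and Rps27l is high in Chd8 KO alone.

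Members were also lower in cells without Chd8 when P53 was absent. In DKO relative to P53 KO 43 of the 82 members fell and 3 rose, while 3.69% of all genes fell and 11.2% rose. The median member moved by -0.33, with 0.11 over all genes. Small and large subunits were both represented, with 20 of 34 and 23 of 48 tested members lower. The fall counted here starts from the P53 KO libraries, whose member share was the highest, and the number of calls was lower without the libraries of the other run. With the 10 libraries of the larger run, where P53 KO is represented by replicate 3 alone and is taken to vary like the other groups, 18 members fell and 2 rose. In that setting Rps4x fell by 1.07, Rpl29 by 1.00, Rpl24 by 0.76 and Rpl22l1 by 1.40 on the log2 scale, each past the test. With the member sum held equal 19 fell and 23 rose, and the median of all genes moved to 0.46. Without DKO replicate 2 the count of rises was 1.

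Of the 25 members that fell in Chd8 KO relative to WT, 22 also fell in DKO relative to P53 KO, which is 88% of the first list and 51.2% of the second. Over all genes the share was 23.5% of the first list and 44.4% of the second. The log2 differences of these comparisons share no library. The calls do, since 1 fit of all 12 libraries gave each gene its spread, and so they are not independent. The 22 included Rps3, Rps3a1, Rps4x, Rps7, Rps14, Rps15 and Rps15a of the small subunit and Rpl8, Rpl11, Rpl17, Rpl22l1, Rpl23, Rpl24, Rpl26, Rpl29, Rpl31, Rpl32, Rpl36, Rpl37, Rpl37a and Rpl38 of the large subunit. The 22 lay on 14 of the 19 chromosomes that carry members, with mean levels from 332 to 3457 TPM. Their log2 differences ran from -1.06 to -0.23 with P53 and from -1.24 to -0.28 without P53. Over the 82 members the differences of both comparisons had Pearson r = 0.735 and Spearman rho = 0.806 across genes, which are not independent replicates, and 62 had the same sign (75.6%). Over all 13162 genes r was 0.126, rho was 0.268 and 61.9% had the same sign.

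Read by library, 29 members (35.4% of those tested) had all 6 Chd8-deleted libraries below all 6 others, against 2.52% of all genes, and 3 members had them all above, against 7.09% of all genes. The 29 included all members just named except Rps7 and Rpl17, together with Rpl6, Rpl10a, Rpl18, Rpl28, Rpl35a, Rps18 and Rps19. The 3 were Rpl27, Rpl7l1 and Rps4l.

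**Figure D3:**
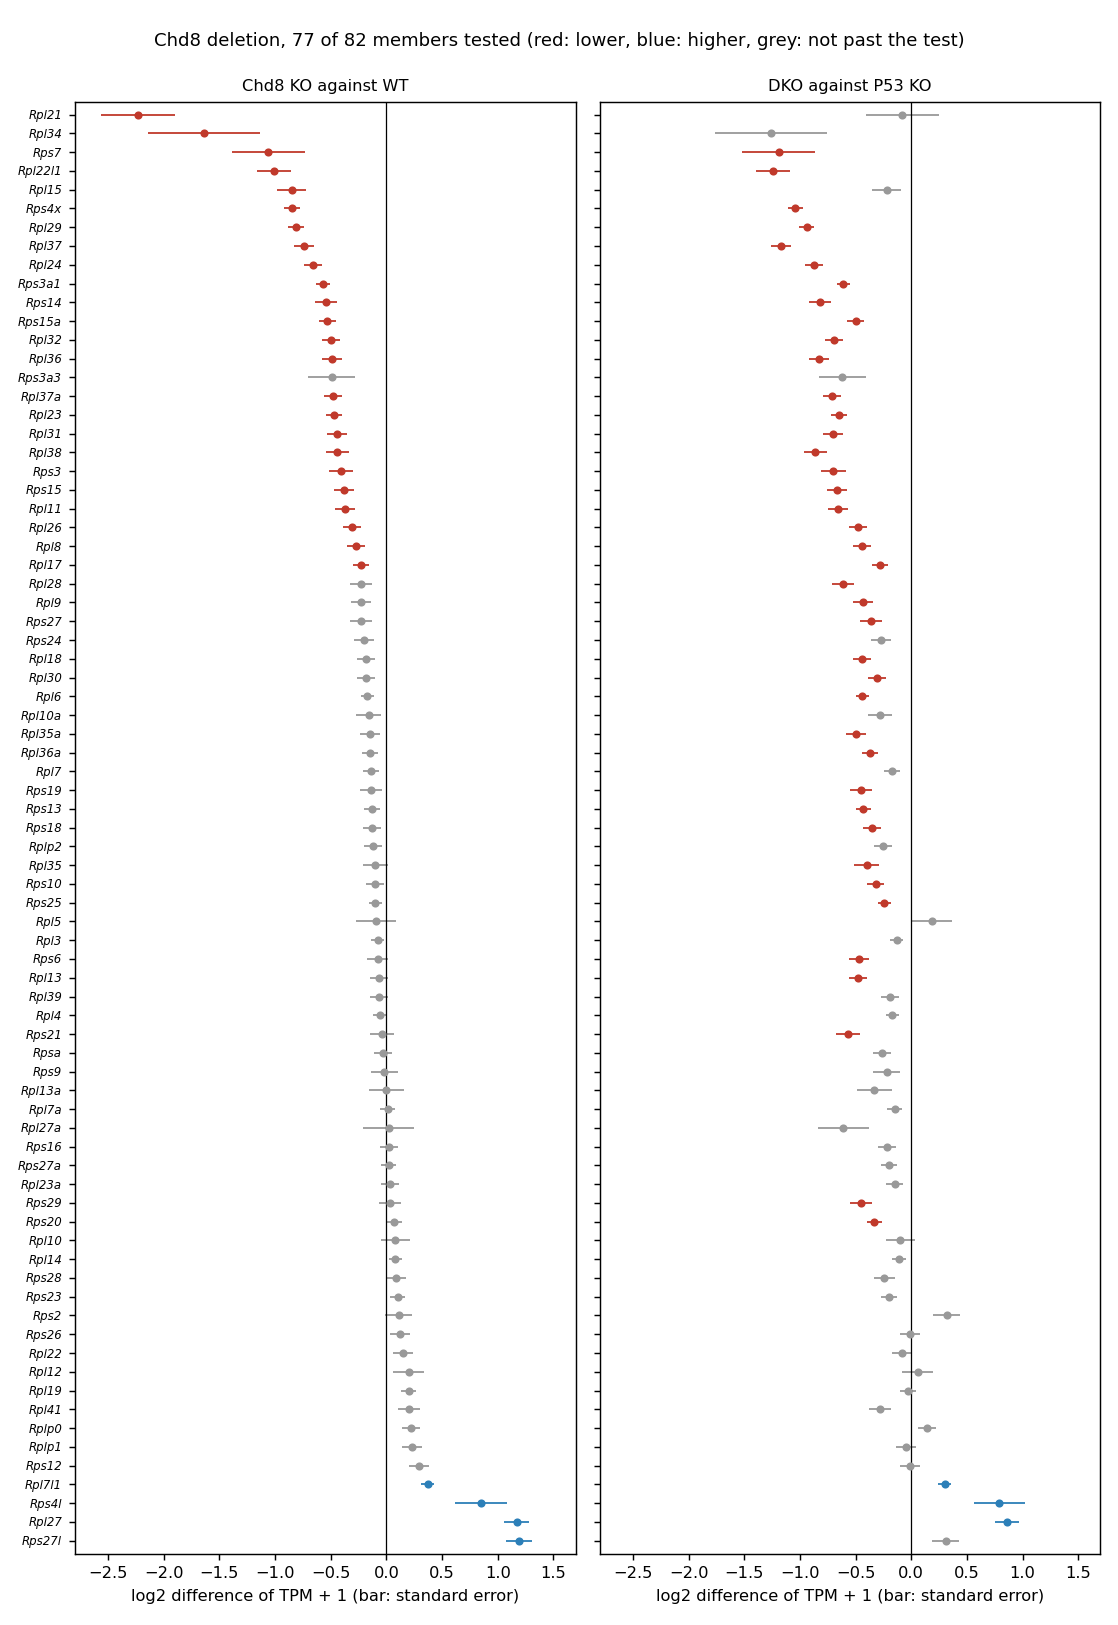
Log2 differences of TPM + 1 with standard errors for 77 of the 82 tested members, in Chd8 KO relative to WT (left) and DKO relative to P53 KO (right), both in the order of the left panel; red marks members that fell, blue members that rose and grey members not past the test (adjusted p under 0.05, limma). On the left 24 are red and 4 blue, on the right 40 are red and 3 blue.

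Members tied to the P53 checkpoint were next compared. Rpl11 and Rpl5 join the 5S rRNA complex that binds MDM2, and Rpl23, Rpl26, Rps3 and Rps7 are also known to bind MDM2 or Trp53 mRNA. Rpl11 stood at 1988, 2254 and 1901 TPM in WT, 1582, 1678 and 1476 in Chd8 KO, 2686, 2356 and 2204 in P53 KO, and 1502, 1508 and 1570 in DKO, and fell by 0.37 and 0.66 on the log2 scale with and without P53 (adjusted p = 0.019 and 0.0023). Rpl5, at a mean of 60.4 ± 5.29 TPM in WT and 57.6 ± 14.5 in Chd8 KO (SD, n = 3), did not pass the test, and its level is uncertain. Rpl23, at 1904, 1988 and 1846 TPM in WT and 1330, 1403 and 1398 in Chd8 KO, fell by 0.47 ± 0.07 (adjusted p = 0.0023).

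Rpl26 fell by 0.31 and 0.48 and Rps3 by 0.41 and 0.70, with and without P53. In Chd8 KO relative to WT the call of Rpl11 was lost when WT replicate 2 was left out, and likewise for Chd8 KO replicate 1 or 3. The call of Rpl26 was lost when replicate 1 or 2 of WT was left out, and likewise for replicate 1 or 3 of Chd8 KO, and that of Rps3 without replicate 1 or 2 of either group. With no filter on low values the adjusted p of these calls was 0.0531 for Rpl11, 0.1 for Rpl26 and 0.0746 for Rps3. In the larger run alone the differences in DKO relative to P53 KO were -0.42 for Rpl26 (adjusted p = 0.0611) and -0.60 for Rps3 (adjusted p = 0.0648).

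Other members of the shared set carry known phenotypes. Rps14, the 5q- gene, stood at 3073, 2685 and 2458 TPM in WT, 1765, 1913 and 1933 in Chd8 KO, 3839, 3086 and 3316 in P53 KO, and 1823, 1966 and 1989 in DKO, with log2 differences of -0.54 ± 0.10 and -0.82 ± 0.10 (adjusted p = 0.00535 and 0.00145). Rpl38, whose loss gives the tail-short mouse with skeletal defects, stood at 2178 ± 60.9 TPM in WT, 1606 ± 189 in Chd8 KO, 2818 ± 312 in P53 KO and 1549 ± 55.5 in DKO (SD, n = 3). Its call in Chd8 KO relative to WT was lost without Chd8 KO replicate 1. Rps3a1, Rps15a, Rpl32, Rpl36, Rpl37a and Rpl31 fell by 0.44 to 0.57 with P53 and by 0.50 to 0.83 without P53, and the calls with P53 held without any 1 library. With the most abundant transcript of each gene alone, the difference in Chd8 KO relative to WT was -0.20 for Rps15a (adjusted p = 0.269) and -0.38 for Rps14 (adjusted p = 0.118). In the larger run alone that of Rps15a in DKO relative to P53 KO was -0.32 (adjusted p = 0.0723). Rps15, Rpl8 and Rpl17 fell by 0.23 to 0.38 with P53, calls that were lost without 1 library in 3, 7 and 10 of the 12 cases.

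Of 20 members on a list of Diamond-Blackfan genes 7 fell and 1 rose in Chd8 KO relative to WT (median -0.16), and 14 fell and 1 rose in DKO relative to P53 KO (median -0.42). Of all 82 tested members 30.5% fell in the first comparison (median -0.13) and 52.4% in the second (median -0.33). Those that fell with P53 present included Rps7, Rps15a, Rpl11, Rpl15, Rpl26 and Rpl31. Rps19, the gene most often mutated in the disease, stood at 3958, 3689 and 3908 TPM in WT and 3334, 3568 and 3576 in Chd8 KO, did not pass the test there, and fell by 0.45 ± 0.10 in DKO relative to P53 KO (adjusted p = 0.0146), a call lost without DKO replicate 1 or 2. It was -0.23 in the larger run alone (adjusted p = 0.162) and -0.08 with the member sum held equal (adjusted p = 0.371).

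The stalk proteins are abundant members that did not pass the test. Rplp0, the scaffold of the stalk, stood at 3208, 3413 and 3088 TPM in WT, 3812, 3916 and 3551 in Chd8 KO, 3703, 3116 and 3774 in P53 KO, and 3867, 3854 and 3899 in DKO. Its partner Rplp1 stood at 5329, 5122 and 4330 TPM in WT and 5746, 6017 and 5569 in Chd8 KO. In both the Chd8 KO libraries lay above the WT libraries, with log2 differences of 0.22 ± 0.08 and 0.23 ± 0.09 that did not pass the test (adjusted p = 0.105 and 0.117), and with the member sum held equal the difference of Rplp0 was 0.37 (adjusted p = 0.00844). Rplp2, the third stalk protein, stood at 2933, 2784 and 2701 TPM in WT and 2634, 2470 and 2621 in Chd8 KO and did not pass the test.

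Rpsa, which also serves as the laminin receptor, stood at 3886 ± 278 TPM in WT, 3792 ± 154 in Chd8 KO, 4494 ± 374 in P53 KO and 3748 ± 54 in DKO. Rps27a, made as a fusion with ubiquitin, stood at 2451 ± 120, 2479 ± 87.5, 2838 ± 88.4 and 2475 ± 156 TPM in that order. Neither passed the test in any comparison. Rps6, the substrate of the S6 kinase, stood at 2439 ± 283 TPM in WT and 2303 ± 111 in Chd8 KO without passing the test, and fell by 0.47 ± 0.09 in DKO relative to P53 KO (adjusted p = 0.00997), from 2934 ± 96.7 to 2123 ± 149 TPM (SD, n = 3). With the member sum held equal that difference of Rps6 was -0.10 (adjusted p = 0.332).

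The other tested members divided by comparison. Lower in DKO relative to P53 KO and not past the test in Chd8 KO relative to WT were 21 members, among them Rps6, Rps10, Rps13, Rps18, Rps19, Rps20, Rps21, Rps25, Rps27, Rps29, Rpl6, Rpl9, Rpl13, Rpl18, Rpl28, Rpl30, Rpl35, Rpl35a and Rpl36a. Lower in Chd8 KO relative to WT and not past the test in DKO relative to P53 KO were 3: Rpl15, Rpl21 and Rpl34. Past the test in no comparison were 32 members, among them Rps2, Rps3a3, Rps9, Rps12, Rps16, Rps23, Rps24, Rps26, Rps27a, Rps28, Rpsa, Rpl3, Rpl4, Rpl5, Rpl7, Rpl7a, Rpl10, Rpl10a, Rpl12, Rpl13a, Rpl14, Rpl19, Rpl22, Rpl23a, Rpl27a, Rpl39, Rpl41, Rplp0, Rplp1 and Rplp2. The remaining 4 rose in Chd8 KO relative to WT and were Rps27l, Rps4l, Rpl7l1 and Rpl27.

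**Figure D4:**
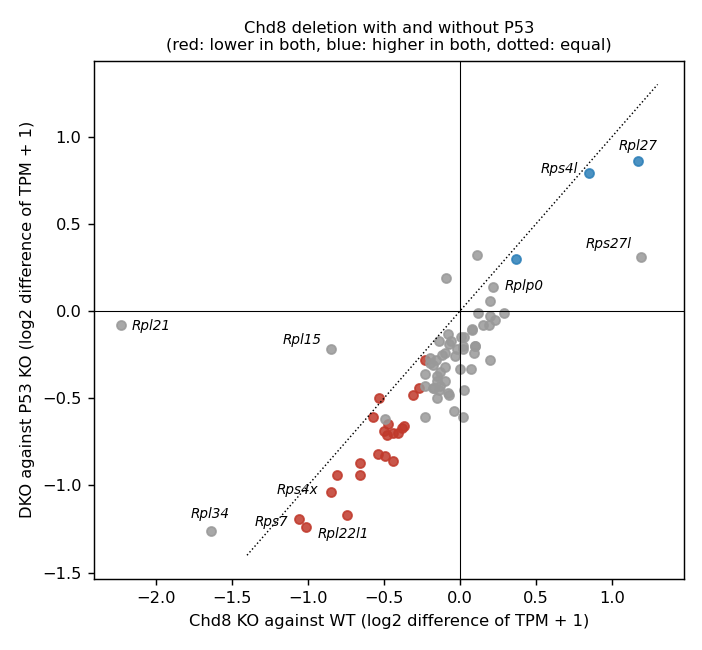
Log2 difference of TPM + 1 for Chd8 KO relative to WT (x) and DKO relative to P53 KO (y), 1 point per tested member; red members fell in both, blue members rose in both and the dotted line marks equal values. The 22 red points lie together at the lower left, with r = 0.735 over all 82 points, and Rps27l, Rpl21 and Rpl15 lie to the side.

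Rps27l rose in Chd8 KO and not past the test in DKO. It stood at 333, 352 and 280 TPM in WT, 779, 759 and 661 in Chd8 KO, 310, 266 and 309 in P53 KO, and 330, 423 and 350 in DKO. The 3 Chd8 KO libraries lay far above the other 9. The log2 difference was 1.19 ± 0.12 in Chd8 KO relative to WT (adjusted p = 0.000138) and it fell by 1.00 ± 0.12 in DKO relative to Chd8 KO (adjusted p = 0.000849), and it was 0.31 ± 0.12 in DKO relative to P53 KO, 0.19 ± 0.12 in DKO relative to WT and -0.12 ± 0.12 in P53 KO relative to WT, none past the test (adjusted p = 0.0973, 0.38 and 0.669). The Chd8 effect without P53 was smaller than that with P53 by -0.88 ± 0.17 (interaction, adjusted p = 0.0259). That call was lost without WT replicate 1, Chd8 KO replicate 1 or 2, P53 KO replicate 1 or DKO replicate 1 or 3, and in the larger run alone the interaction was -0.94 with an adjusted p of 0.12.

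Rps27, the partner of Rps27l, stood at 4229, 3876 and 3723 TPM in WT, 3262, 3471 and 3344 in Chd8 KO, 5959, 4947 and 4618 in P53 KO, and 3777, 3948 and 4286 in DKO. It had no call in Chd8 KO relative to WT and a fall of 0.36 ± 0.10 in DKO relative to P53 KO (adjusted p = 0.0351), lost without 1 library in 8 of the 12 cases and turned to 0.01 with the member sum held equal. On a list of 12 P53 feedback and target genes, 8 rose in Chd8 KO relative to WT, where 9.65% of all genes rose, and 9 fell in DKO relative to Chd8 KO, where 4.21% of all genes fell. The list holds Trp53, the deleted gene itself, which was among the 9 (-3.82 ± 0.11) by design. Cdkn1a, the cell cycle inhibitor p21, stood at 14.3, 12.8 and 13.9 TPM in WT, 244, 171 and 116 in Chd8 KO and 7.33 to 8.36 in DKO.

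Rises were few. Rpl7l1, a paralog of Rpl7, stood at 80, 88.8 and 76 TPM in WT, 105, 106 and 106 in Chd8 KO, 78.4, 77.9 and 79.8 in P53 KO, and 96.1, 100 and 95.4 in DKO, and rose by 0.37 ± 0.06 and 0.30 ± 0.06 (adjusted p = 0.00375 and 0.0131) with and without P53. The call without P53 was lost without DKO replicate 2, and in the larger run alone its value was 0.28 (adjusted p = 0.133). Rps4l, an autosomal relative of Rps4x, stood at 24.3, 25.6 and 17.2 TPM in WT, 49.7, 40.4 and 33.0 in Chd8 KO, 23.3, 23.0 and 12.9 in P53 KO, and 36.2, 35.3 and 29.9 in DKO. It rose by 0.85 ± 0.23 and 0.79 ± 0.23 (adjusted p = 0.0312 and 0.0449) while Rps4x fell, and the first call was lost when replicate 1 or 3 of WT or replicate 1 or 2 of Chd8 KO was left out and the second without 1 library in 9 of the 12 cases. Among the 5 tested members of a list of variant paralogs, 3 rose and 1 fell in Chd8 KO relative to WT, and 2 rose and 1 fell in DKO relative to P53 KO, where 9.65% and 11.2% of all genes rose. Rps3a3 was the member left over, at 1.24 TPM.

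P53 deletion alone gave no member past the test. In P53 KO relative to WT 0 of 82 members rose and 0 fell by limma at an adjusted p under 0.05, with 0.076% of all genes higher and 0.106% lower. Without adjustment for multiple tests, 56 members had p under 0.05 with higher values and 0 with lower, and in 49 members all 3 P53 KO libraries lay above all 3 WT libraries, against 5.46% of all genes. At the same unadjusted p 5.6% of all genes had higher values and 9.07% lower. The median member stood 0.23 higher on the log2 scale, with -0.03 over all genes. The largest shifts with small spread were 0.46 ± 0.08 for Rpl13 (2275, 2138 and 2169 TPM in WT, 3398, 2952 and 2759 in P53 KO), 0.45 ± 0.10 for Rps29 (4760, 3929 and 3958 against 6473, 5780 and 5084) and 0.44 ± 0.11 for Rps21 (2422, 1847 and 1943 against 3035, 2729 and 2623), with adjusted p of 0.0699, 0.186 and 0.204. These 3 were chosen after their values were seen. Without P53 KO replicate 3, which leaves P53 KO with its smaller-run pair alone, 24 members rose, and in no other setting but 2 (1 rise without WT replicate 3, and 1 rise and 2 falls with the member sum held equal) did any pass.

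DKO and Chd8 KO cells had nearly the same levels of most members. These groups differ in P53 and also in the sum of 4 Y-linked genes, at 94.2 to 116 TPM in Chd8 KO and 1.8 to 2.03 in DKO. The parts of these differences cannot be told apart in this comparison. In DKO relative to Chd8 KO 4 members rose and 1 fell, with 6.32% of all genes higher and 4.21% lower, and the median member moved by 0.01. The 4 that rose were Rpl21, Rpl34, Rps7 and Rpl15, described below, and the 1 that fell was Rps27l. Without Chd8 KO replicate 1 or without DKO replicate 1 the count of rises was 2. Rps4x, for instance, stood at 1854 ± 90.1 TPM in Chd8 KO and 1789 ± 65.7 in DKO (SD, n = 3).

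In DKO relative to WT 18 members fell and 2 rose, with 1.77% of all genes lower and 3.46% higher, and the median member moved by -0.08. Among the largest falls were Rpl22l1 (-1.27 ± 0.15, adjusted p = 0.000985), Rps4x, Rpl29 (-0.90 ± 0.07, adjusted p = 0.000127), Rpl37 (-0.86 ± 0.09, adjusted p = 0.000677) and Rpl24 (-0.70 ± 0.08, adjusted p = 0.000841). The rises were Rpl27 and Rpl7l1. The count of falls was 9 without DKO replicate 1 or 2 and 11 without WT replicate 1, and the count of rises was 1 to 2 without any 1 library. This comparison shares its WT libraries with Chd8 KO relative to WT and its DKO libraries with DKO relative to P53 KO. Over the interaction, 1 member was higher (Rpl21) and 1 lower (Rps27l), with 0.965% of all genes higher and 0.836% lower, and the median member was at -0.22 with 0.10 over all genes. Without P53 KO replicate 3 these counts were 2 and 13.

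Some members share nearly all of their sequence with processed copies elsewhere in the genome, and the sources used here do not say how reads were divided among them. The tables hold 281 named copies of members, and in 15 members the copies held 5% or more of the summed TPM. Rps12 held 195 TPM while its copies held 96.9% of the family, nearly all of it in Rps12-ps3 (5369 to 6537 TPM). Rps12 itself passed the test in no comparison. Rpl27 stood at 133, 136 and 97.7 TPM in WT, 275, 274 and 272 in Chd8 KO, 136, 136 and 138 in P53 KO, and 226, 270 and 253 in DKO. Its rises of 1.17 ± 0.11 in Chd8 KO relative to WT (adjusted p = 0.000119), 0.86 ± 0.11 in DKO relative to P53 KO (adjusted p = 0.00182) and 1.04 ± 0.11 in DKO relative to WT (adjusted p = 0.000731) turned to -0.01, -0.76 and -0.40 when its copies were added, of which Rpl27-ps3 was the largest (565 to 1480 TPM). The rise of Rpl27 is therefore uncertain.

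Rpl34 stood at 1253, 1118 and 247 TPM in WT, 204, 226 and 248 in Chd8 KO, 2632, 2272 and 1372 in P53 KO, and 791, 837 and 897 in DKO, while Rpl34-ps1 stood at 0 in P53 KO replicates 1 and 2 and at 888 to 2296 TPM in the other libraries. Member and copies together stood at 2479 ± 68.6 TPM in WT, 1931 ± 98.4 in Chd8 KO, 2543 ± 239 in P53 KO and 1769 ± 103 in DKO (SD, n = 3). The member fell by 1.64 ± 0.50 in Chd8 KO relative to WT (adjusted p = 0.0464). The sum fell by 0.36 ± 0.08 there (adjusted p = 0.0125), and it stood at 1682 to 1882 TPM in DKO against 2273 to 2724 in P53 KO. The member's rise of 1.90 ± 0.50 in DKO relative to Chd8 KO (adjusted p = 0.0362) became -0.13 for the sum. The call of the member's fall was lost without 1 library in 10 of the 12 cases, and that of its rise without any 1 library of either group. P53 KO stood 1.52 ± 0.50 above WT for the member without passing the test (adjusted p = 0.24).

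Rpl37 shares its family with Rpl37rt, a retrotransposed copy at 770 to 2500 TPM, and both moved alike. Rpl37 stood at 805, 687 and 664 TPM in WT, 415, 445 and 426 in Chd8 KO, 972, 840 and 860 in P53 KO, and 370, 389 and 430 in DKO, with log2 differences of -0.74 ± 0.09 and -1.17 ± 0.09 (adjusted p = 0.000535 and 0.000108). The sum stood at 2177 ± 183 TPM in WT and 1234 ± 39.9 in Chd8 KO, and its log2 differences were -0.82 and -1.27. Rpl31, the other member of the shared set with many copies (63.8% of the family), stood with them at 3407 ± 276 TPM in WT, 2596 ± 77.9 in Chd8 KO, 3900 ± 409 in P53 KO and 2580 ± 28 in DKO (SD, n = 3). With named copies added to every member all 22 shared falls remained. In 2 of these 22 members the copies held 5% or more of the family, so for the rest this setting could change little. Unnamed genes such as Gm6472, described below, were not added. The counts were 3 rises and 26 falls in Chd8 KO relative to WT. In DKO relative to P53 KO they were 2 rises and 48 falls.

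**Figure D5:**
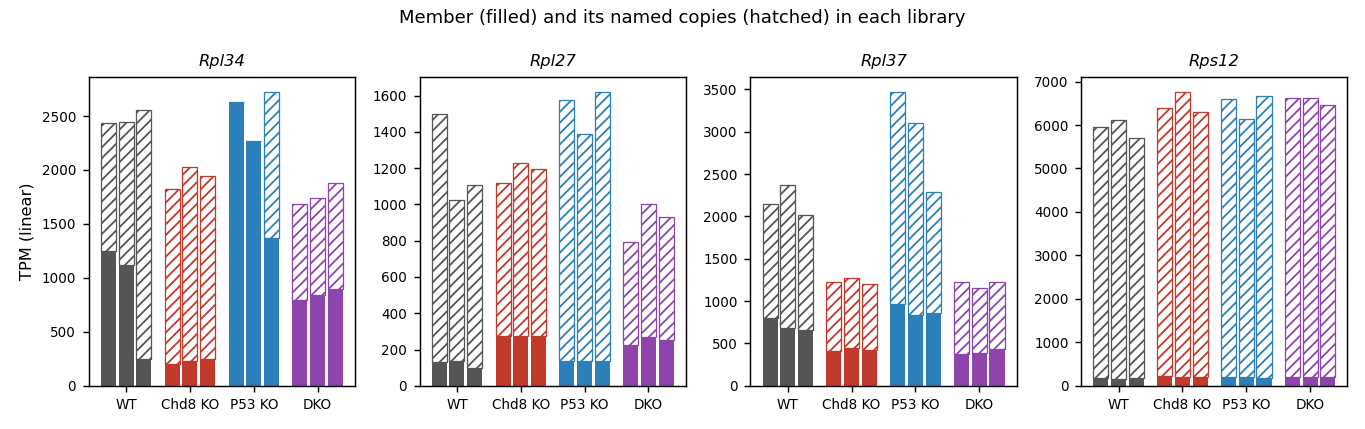
TPM (linear scale from 0) of 4 members (filled) with their named copies stacked on top (hatched), 1 bar per library in replicate order within each genotype. In WT and P53 KO the filled part of Rpl34 varies more between replicates than the whole bar, the filled part of Rpl27 rises with Chd8 deletion while the whole bar does not, Rpl37 falls in both parts, and Rps12 is almost all hatched.

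Rpl21 stood at 1668, 1830 and 1606 TPM in WT, 244, 756 and 257 in Chd8 KO, 2102, 1929 and 1774 in P53 KO, and 1822, 1804 and 1847 in DKO. It fell by 2.23 ± 0.33 in Chd8 KO relative to WT (adjusted p = 0.00178) and rose by 2.33 ± 0.33 in DKO relative to Chd8 KO (adjusted p = 0.00234), with an interaction of 2.15 ± 0.47 (adjusted p = 0.0487). The unnamed gene Gm10163, chosen after its values were seen because it ran opposite to Rpl21, stood at 285 to 385 TPM in WT, 1823 to 2727 in Chd8 KO, 214 to 342 in P53 KO and 311 to 345 in DKO. The same search returned Rpl34-ps1 for Rpl34. For Rpl15 it returned Ifitm3, which is not named as a copy, with sums of 1278 to 1616 TPM. The search by itself therefore does not pick out copies. The sum of both stood at 1900 to 2116 TPM in WT and 2517 to 2984 in Chd8 KO. How Gm10163 relates to Rpl21 by sequence was not checked. Whether the tables' split of reads between these genes has a part in the fall of Rpl21 was not tested. The interaction call was lost without 1 library in 10 of the 12 cases.

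Rps7 stood at 960, 851 and 337 TPM in WT, 295, 341 and 303 in Chd8 KO, 2298, 1975 and 1842 in P53 KO, and 1173, 768 and 785 in DKO. It fell by 1.06 ± 0.33 in Chd8 KO relative to WT (adjusted p = 0.0489) and by 1.19 ± 0.33 in DKO relative to P53 KO (adjusted p = 0.0355), and rose by 1.51 ± 0.33 in DKO relative to Chd8 KO (adjusted p = 0.0165). These calls were lost without 1 library in 11, 8 and 2 of the 12 cases. P53 KO stood 1.64 ± 0.33 above WT (adjusted p = 0.132). Gm6472, chosen in the same way, stood at 1667 to 2304 TPM in WT, 1802 to 1941 in Chd8 KO, 786 to 881 in P53 KO and 837 to 1477 in DKO, and the sum at 2627 to 2904, 2105 to 2282, 2722 to 3130 and 2009 to 2262 TPM in that order. The sums of the Chd8-deleted groups lay below those of the others. How Gm6472 relates to Rps7 by sequence was not checked.

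Rpl15 stood at 1162, 1156 and 796 TPM in WT, 563, 604 and 531 in Chd8 KO, 1114, 1064 and 1223 in P53 KO, and 929, 982 and 1000 in DKO. It fell by 0.85 ± 0.13 in Chd8 KO relative to WT (adjusted p = 0.00204) and rose by 0.78 ± 0.13 in DKO relative to Chd8 KO (adjusted p = 0.0052), while DKO relative to P53 KO did not pass the test. With its copies it stood at 2319, 2425 and 1491 TPM in WT, 917, 953 and 877 in Chd8 KO, 1873, 1946 and 2473 in P53 KO, and 1912, 1940 and 1917 in DKO. The sum too was lowest in the 3 Chd8 KO libraries.

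Of 4 ribosome genes outside the symbol rule, Fau, Rack1 and Rpl36al among them, 1 fell in Chd8 KO relative to WT and 1 in DKO relative to P53 KO. It was Rack1, a scaffold on the small subunit, at 2213, 2243 and 2030 TPM in WT, 1708, 1812 and 1726 in Chd8 KO, 2349, 2129 and 2443 in P53 KO, and 1729, 1747 and 1704 in DKO (-0.31 ± 0.07 and -0.42 ± 0.07, adjusted p = 0.0139 and 0.00579). Of 17 translation factors and other genes with 5′ TOP mRNAs, 3 fell and 1 rose in each of these comparisons, with medians of -0.06 and -0.07 beside 0.02 and 0.11 over all genes. Of all genes 6.98% and 3.69% fell and 9.65% and 11.2% rose. Eef1g, a subunit of the elongation factor 1 complex, stood at 1157, 1196 and 1065 TPM in WT and 764, 747 and 758 in Chd8 KO (-0.59 ± 0.06, adjusted p = 0.000131), and Naca, the nascent polypeptide chaperone, at 1162, 1166 and 1113 against 831, 911 and 869 (-0.40 ± 0.06, adjusted p = 0.00233). Both also fell in DKO relative to P53 KO, by 0.68 and 0.52.

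Of 38 ribosome biogenesis genes, which build ribosomes in the nucleolus, 11 rose and 0 fell in Chd8 KO relative to WT, where 9.65% of all genes rose and 6.98% fell. In DKO relative to P53 KO 19 rose and 0 fell, where 11.2% of all genes rose and 3.69% fell. Their medians were 0.22 and 0.35, with 0.02 and 0.11 over all genes. At an unadjusted p under 0.05 in limma, 21 and 27 of the 38 had higher values and 0 lower, with 18.2% and 23.7% of all genes higher and 13.2% and 7.51% lower. Npm1, the nucleolar chaperone, stood at 1734, 1869 and 1659 TPM in WT, 2147, 2229 and 2097 in Chd8 KO, 1343, 1502 and 1624 in P53 KO, and 1979, 2213 and 2066 in DKO, and rose by 0.30 ± 0.08 and 0.49 ± 0.08 (adjusted p = 0.0311 and 0.00607). Pes1 and Wdr12, partners in the maturation of the large subunit, rose by 0.47 ± 0.08 and 0.49 ± 0.08 in DKO relative to P53 KO (adjusted p = 0.00492 and 0.00533). In P53 KO Pes1 stood at 93.8, 95.1 and 98.9 TPM and Wdr12 at 61.3, 68.6 and 73.5. These 2 genes and Npm1 were thus lower in P53 KO replicates 1 and 2, of the other run, than in replicate 3. The counts of this list were not repeated without those 2 libraries.

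Of 19 regulators of ribosomal protein synthesis 2 rose in Chd8 KO relative to WT, a share near the 9.65% of all genes that rose there, and 7 rose in DKO relative to P53 KO, where 11.2% of all genes rose. By limma 0 fell in either, and at an unadjusted p under 0.05 5 and 9 had higher values and 0 lower. Their medians were 0.15 and 0.14, with 0.02 and 0.11 over all genes. Gabpa, an ETS factor, stood at 47.5, 41.4 and 54.1 TPM in WT, 80.3, 75.4 and 94.4 in Chd8 KO, 39.7, 46.5 and 45.2 in P53 KO, and 80.1, 73.4 and 80.8 in DKO (0.80 ± 0.11 and 0.82 ± 0.11, adjusted p = 0.00134 and 0.00221). Its binding to promoters of members was not tested. Yy1 rose by 0.34 ± 0.06 and 0.38 ± 0.06. Larp1, the TOP mRNA binding protein, rose by 0.37 ± 0.08 in DKO relative to P53 KO (adjusted p = 0.0162). It stood at 91.5 to 99.7 TPM in WT, 74.7, 77.2 and 90.5 in P53 KO and 96.8 to 111 in DKO. Its lowest libraries were P53 KO replicates 1 and 2, of the other run, and the counts of this list were not repeated without them. Myc, at 249 to 283 TPM in WT and 232 to 269 in Chd8 KO, passed the test neither in Chd8 KO relative to WT nor in DKO relative to P53 KO.

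Marker genes of other blood cells differed in level between the groups. The sum of 8 lymphoid progenitor genes was 495 to 799 TPM in WT, 73.0 to 216 in Chd8 KO, 576 to 602 in P53 KO and 476 to 530 in DKO, with 8, 4, 8 and 7 genes at a mean of 1 TPM or more. The sum of 10 erythroid genes was 474 to 956, 89.4 to 153, 263 to 1626 and 726 to 1655 TPM in that order, with 10, 9, 9 and 10 genes at that level. The sum of 10 B cell genes was 166 to 483, 45.2 to 53.7, 69.3 to 384 and 156 to 463 TPM, with 9, 3, 9 and 9 genes at that level. The sum of 10 neutrophil and monocyte genes was 90.6 to 934 TPM in WT, the highest in replicate 3, 194 to 419 in Chd8 KO, 75.9 to 132 in P53 KO and 87.2 to 98.8 in DKO. The sum of 10 T and NK cell genes was 154 to 163 TPM in WT, 138 to 196 in Chd8 KO, 156 to 189 in P53 KO and 37.3 to 122 in DKO, with 6, 2, 4 and 4 genes at that level. Nkg7 made up most of it in WT (108 to 134 TPM) and Chd8 KO (134 to 192 TPM). Trbc1 stood at 14.1 to 22.3 TPM in WT and 1.41 to 1.65 in Chd8 KO. Trbc2, Ncr1 and Gzma were also lower in every Chd8 KO library than in WT, while Cd3d and Trac overlapped. The sum of 8 endothelial and stromal genes was 61.5 to 92.3 TPM in WT, 52.5 to 74.5 in Chd8 KO, 85.7 to 131 in P53 KO and 78.4 to 82 in DKO. In DKO the sums for endothelial and stromal genes, for lymphoid progenitors and for T and NK cells lay below all P53 KO libraries. The sums for the other 3 lists overlapped between these groups. For the B cell and erythroid lists that overlap came only from P53 KO replicate 3, whose sums were 384 and 1626 TPM. P53 KO replicates 1 and 2, of the other run, lay below every DKO library on both lists. The part of these cells in the member levels of Chd8 KO, P53 KO and DKO was not tested.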

How the data were processed

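RNA sequencing of 12 libraries of LSK cells was used. The deposited values are TPM per transcript, a length-scaled share of the library, with each library summing to 1000000, so depth and counting precision are unknown; the sources used here do not name the tool that made the TPM. The submitters' processing notes name STAR 2.6.1e and featureCounts 1.6.2 among others. The 4 ATAC-seq and 6 CUT&RUN samples were not analysed here. TPM were summed by gene symbol, and genes averaging 1 TPM or more entered a limma fit (version 3.58.1, R 4.3.3) of log2(TPM + 1), with 1 mean per genotype over all 12 libraries (8 residual degrees of freedom, mean-variance trend, two-sided, Benjamini-Hochberg over 13162 genes, call at an adjusted p under 0.05). Fold changes on this scale understate the change of low genes. The interaction is the Chd8 effect without P53 minus that with P53. Figures were drawn with matplotlib 3.10.9 and tables made with pandas 2.3.3 and numpy 2.4.6 under Python 3.11.15, and the fit was tested on simulated data. The members and lists were chosen with earlier results of these data known. Genes named in the text were the paralog pairs, P53 checkpoint, stalk and ribosomopathy members, the 6 largest rises and falls past the test in each comparison, the 5 highest and 5 lowest members, and up to 4 genes per other list by smallest p. Alternatives were the pseudocount, low-value filter, scaling, transcript choice, groups fitted, trend, replicate block, run, and each library left out. A few genes that the rule would name are not reported here, though all counts include them.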

Additional observations from a re-analysis of the deposited data

Results flagged for a closer look

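The Chd8 effect differed with P53 status in 2 members by the interaction term of limma. For Rpl21 the effect without P53 minus that with P53 was 2.15 on the log2 scale (adjusted p = 0.0487). For Rps27l it was -0.88 (adjusted p = 0.0259). Neither call held whichever 1 library was left out. Gm10163 ran opposite to Rpl21, and its part in the Rpl21 value was not tested.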

How the results depend on the processing

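TPM is a share of each library, so a lower value can follow from a higher share of other genes, and depth is unknown. The cause of the shifts below was not tested.

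With the member sum held equal in every library, 16 members were higher in Chd8 KO relative to WT, 1 higher and 2 lower in P53 KO relative to WT, 8 higher in DKO relative to WT, 2 lower in DKO relative to Chd8 KO, 23 higher and 19 lower in DKO relative to P53 KO, and 2 higher and 0 lower in the interaction. In that setting the DKO relative to P53 KO values turned to 0.09 for Rpl17, 0.06 for Rpl30, 0.05 for Rps10, 0.02 for Rps18, 0.04 for Rps20, 0.14 for Rps25 and 0.01 for Rps27. Quantile normalization gave 9 higher in Chd8 KO relative to WT, 6 higher and 9 lower in DKO relative to WT, 24 lower in DKO relative to P53 KO and 2 higher in the interaction. Median-of-ratios scaling gave 1 higher in DKO relative to WT, 1 higher in DKO relative to P53 KO, and 0 higher and 0 lower in the interaction. Rescaling without mitochondrial and member genes, and dropping the mean-variance trend, each gave 1 higher in DKO relative to WT and 0 higher in the interaction. The most abundant transcript alone gave 4 higher in DKO relative to WT and 0 higher in the interaction. A filter at 5 TPM or none gave 0 higher in the interaction. The 10 libraries of the larger run gave 7 higher in Chd8 KO relative to WT, 4 higher in DKO relative to WT, 18 lower in DKO relative to P53 KO, and 0 higher and 0 lower in the interaction. Run as a covariate gave 18 lower in DKO relative to P53 KO and 0 in either direction of the interaction. Fitting only the groups compared gave 2 lower in DKO relative to Chd8 KO, and 1 higher and 22 lower in DKO relative to P53 KO.

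Adding named copies, an alternative chosen after seeing the data, turned Rpl27 to -0.01, -0.40 and -0.76 in Chd8 KO relative to WT, DKO relative to WT and DKO relative to P53 KO, and Rpl34 to -0.13 in DKO relative to Chd8 KO. The mean member share was 19.3%, 17.4% and 17.9% in WT, Chd8 KO and DKO without mitochondrial genes, 21%, 19%, 24.7% and 19.4% in WT, Chd8 KO, P53 KO and DKO with -ps genes added, and 19.5%, 17.6% and 18.2% in WT, Chd8 KO and DKO without the 10 most abundant other genes.

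Replicate numbers did not pair the samples: same-numbered deviations correlated between -0.25 and 0.12 over 18 pairs. With the replicate block 4 members were higher and 23 lower in Chd8 KO relative to WT, 3 and 42 in DKO relative to P53 KO, and 0 higher and 1 lower in the interaction.

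Leaving out 1 library gave 3 to 5 higher and 16 to 24 lower in Chd8 KO relative to WT, 0 to 24 higher and 0 lower in P53 KO relative to WT, 1 to 2 higher and 9 to 22 lower in DKO relative to WT, 2 to 4 higher and 1 lower in DKO relative to Chd8 KO, 1 to 3 higher and 30 to 50 lower in DKO relative to P53 KO, and 0 to 2 higher and 0 to 13 lower in the interaction. Shares ran from 17.8% to 18.8% in WT, 16.1% to 16.5% in Chd8 KO, 20.9% to 22.4% in P53 KO and 16.7% to 17% in DKO. Taken 1 at a time, the alternatives kept 14 to 22 of the 22 shared falls, with 14 without Chd8 KO replicate 1. How many of them held in all alternatives was not counted.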
